A study of Mus musculus with 12 samples.

Results

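Lipopolysaccharide (LPS), the main glycolipid of the outer membrane of Gram-negative bacteria, is sensed in mammals by a short relay of proteins, and the transcripts of 10 genes of that relay were followed in mouse lung. They are the carrier and co-receptor genes Lbp, Cd14 and Ly96, the adaptor genes Myd88, Tirap, Ticam1 and Ticam2, and the kinase family genes Irak2, Irak3 and Irak4. The genes were taken by symbol from the deposited count table, where all 10 had a row among 54532 genes, and all 10 passed the filter on low counts, as did 16185 genes in all. Bulk RNA sequencing covered 12 lung samples, 6 from mice with acute lung injury (ALI) and 6 controls. The injury followed seawater drowning by the series design, and the series title links lung injury to an imbalance of the gut flora. The labels give no strain, age, genotype, seawater volume or time of collection, and do not describe how controls were handled. Nothing in the labels ties each sample to its own animal. The p-values below therefore reflect only sample-to-sample spread, which could be technical.

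In the textbook account, LBP lifts LPS out of bacterial membranes and passes it to CD14, which hands it to MD-2, the product of Ly96, in complex with the receptor TLR4. At the cell surface the receptor engages TIRAP and MyD88, which assemble IRAK4 and IRAK2 or IRAK1 into a signalling complex that leads through TRAF6 to NF-kB. After CD14-dependent uptake into endosomes, TLR4 instead engages TRAM, the product of Ticam2, and TRIF, the product of Ticam1, which lead to the transcription factor IRF3 and interferon genes. IRAK3, also called IRAK-M, is known as a brake on this signalling in macrophages. In the lung, alveolar and recruited macrophages, monocytes and neutrophils carry CD14 and TLR4, and LBP is made by liver and by airway and alveolar epithelium.

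Promoters of 3 genes are shown because they stand for different outcomes below, a moderate rise (Myd88), a large rise (Irak3) and no call (Ticam1). Each is the RefSeq window on GRCm38.p6 from 250 bases before to 50 bases after a gene start, written 5′ to 3′ on the strand of the gene, and all 3 genes lie on the minus strand. The Myd88 window lies inside the GENCODE M21 span of that gene (119335934 to 119341411), so it does not flank the outermost start of that span. Capitals mark matches to the motifs named after them.
Myd88 (chr9:119339969-119340268): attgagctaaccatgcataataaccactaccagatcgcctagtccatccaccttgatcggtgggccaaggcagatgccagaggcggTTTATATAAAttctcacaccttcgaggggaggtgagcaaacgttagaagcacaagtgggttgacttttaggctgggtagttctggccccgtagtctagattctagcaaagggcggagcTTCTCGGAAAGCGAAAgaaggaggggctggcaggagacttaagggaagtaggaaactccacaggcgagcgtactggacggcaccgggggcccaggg
Irak3 (chr10:120202081-120202380): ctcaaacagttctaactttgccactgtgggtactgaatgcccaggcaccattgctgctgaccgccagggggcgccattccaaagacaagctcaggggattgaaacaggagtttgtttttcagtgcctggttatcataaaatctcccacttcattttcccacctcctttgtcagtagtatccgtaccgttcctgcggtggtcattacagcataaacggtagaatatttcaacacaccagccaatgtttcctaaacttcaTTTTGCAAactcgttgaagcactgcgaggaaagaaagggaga
Ticam1 (chr17:56276718-56277017): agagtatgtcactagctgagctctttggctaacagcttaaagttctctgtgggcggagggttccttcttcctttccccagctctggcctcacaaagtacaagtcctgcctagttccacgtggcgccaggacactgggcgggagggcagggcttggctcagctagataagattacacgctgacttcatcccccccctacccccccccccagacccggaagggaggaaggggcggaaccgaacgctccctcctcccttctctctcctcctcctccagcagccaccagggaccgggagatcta
Both strands were searched for the kappaB decamer consensus, an AP-1 motif (TGANTCA), a C/EBP motif (TTGCNNAA), a GAS motif (TTCNNNGAA), the ISRE core and a TATA box (TATAAA). The Myd88 window held TATA box letters on both strands, from 164 bases before the start (antisense) and from 160 bases before it (sense), which overlap. It also held a GAS match from 46 bases before the start and an ISRE core match from 40 bases before it, which share bases. The Irak3 window held a C/EBP match on the antisense strand from base 9 after the start. No match was found in the Ticam1 window. RefSeq windows of 6 of the 10 genes were searched, 8 windows in all, and the other 5 windows, of Irak2, Irak4, Tirap and the other Irak3 start, held no match. Cd14 and Ticam2, which had the largest rises of the 10, and Ly96 and Lbp were not searched. Of 32851 windows of this length in the reference, 8.30% held the GAS motif, 3.44% the ISRE core, 13.6% the TATA box, 10.8% the C/EBP motif, 7.81% the AP-1 motif and 4.51% the kappaB decamer. These matches describe letters in a window and are no evidence of binding.

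Total counts were 16527017 to 19706494 per sample in ALI and 15707937 to 18216324 in controls. Levels are CPM, counts scaled to the TMM-adjusted library size, and changes are log2 fold changes of ALI over control with their standard error (SE) from edgeR's quasi-likelihood test. A gene was called at a Benjamini-Hochberg adjusted p under 0.05. Markers of lung epithelium were abundant in every sample, with the surfactant gene Sftpc at 11630 ± 1639 CPM in ALI and 13950 ± 2206 CPM in controls (SD, n = 6 each). Control 5 and ALI 2 stood apart by fat cell transcripts: 7 adipocyte markers summed to 667 CPM in ALI 2 and 5007 CPM in control 5. In control 5, 9.85% of counts were mitochondrial, against 1.87% to 2.31% in the other controls and 1.62% to 3.18% in ALI samples. Without control 5 and ALI 2 the same 8 of the 10 genes were called, all higher. Haemoglobin genes held 0.31% to 1.03% of counts in controls and 0.075% to 0.134% in ALI samples.

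In ALI, 8 of the 10 genes were higher and none was lower, where 36.6% of all tested genes were called, 18.9% higher and 17.7% lower. In each of these 8 genes all 6 ALI values lay above all 6 control values, a pattern met by 13.1% of all tested genes, while the reverse, met by 8.25%, was seen in none of the 10. The median log2 change of the 10 genes was 0.81, and that of all tested genes was -0.06. The rises were uneven. Cd14, Ticam2 and Irak3 rose 9.64-fold, 7.19-fold and 3.66-fold, while Ly96, Lbp, Myd88, Irak4 and Irak2 rose 1.45-fold to 2.11-fold and Tirap and Ticam1 did not pass the test. In a bulk sample, more cells that carry a transcript and more of it per cell cannot be told apart.

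**Figure D1:**
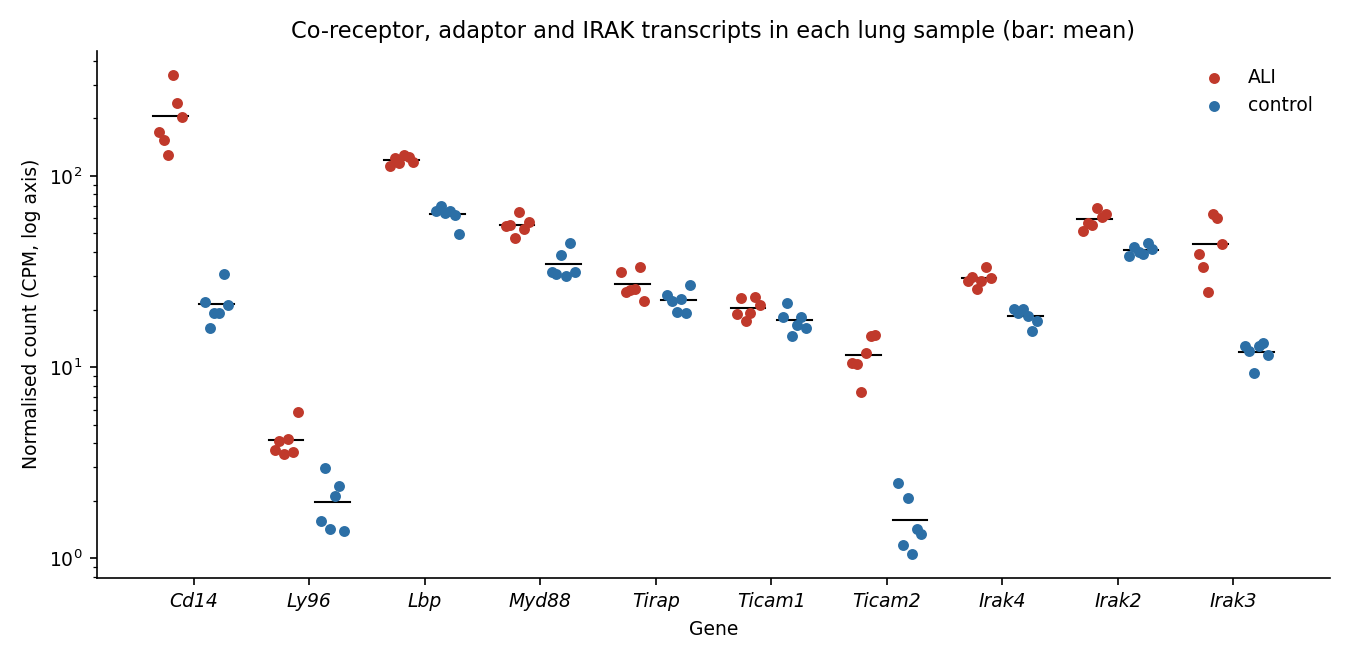
Normalised counts (CPM, log axis) of the 10 genes in each of the 6 ALI and 6 control samples, with a bar at the group mean. The ALI points of Cd14 sit between 128 and 338 CPM and its control points between 16.0 and 30.6 CPM, and the groups overlap only in Tirap and Ticam1.

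**Figure D2:**
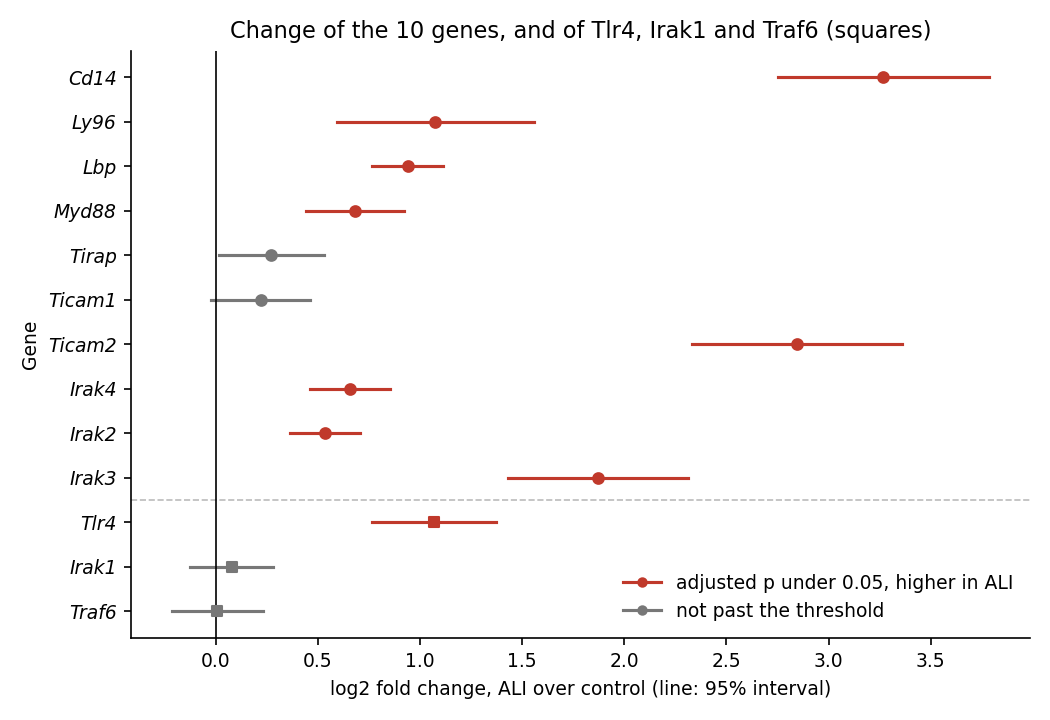
Log2 fold change of ALI over control for the 10 genes (circles) and for Tlr4, Irak1 and Traf6 (squares), with 95% intervals from edgeR. Cd14 at 3.27, Ticam2 at 2.85 and Irak3 at 1.87 lie to the right of the other genes, and Irak1 and Traf6 lie near 0.

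Among the carriers and co-receptors, Cd14, which encodes the surface and soluble LPS co-receptor, had the largest change of the 10 genes. It had 128 CPM in the lowest, 187 in the median and 338 in the highest ALI sample, against 16.0, 20.1 and 30.6 CPM in controls. The groups lay far apart, with control 5 the highest control and ALI 3 the lowest ALI sample. Cd14 rose by 3.27 ± 0.24 (SE, edgeR adjusted p = 2.78e-07), which put it at rank 91 of 16185 tested genes by log2 change. Cd14 (ENSMUSG00000051439) lies on chromosome 18 at 36725067 to 36726798 of GRCm38, minus strand, and shares no exon bases with another gene.

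Ly96 encodes MD-2, the part of the receptor complex that binds LPS. It was the least expressed of the 10 genes in ALI by CPM, with 3.50 in the lowest, 3.91 in the median and 5.83 CPM in the highest ALI sample, against 1.39, 1.84 and 2.97 CPM in controls. ALI 6 stood above the other ALI samples. The rise was 1.08 ± 0.22 (SE, edgeR adjusted p = 0.00172) and rested on 443 counts over the ALI samples and 196 over the controls. The gene (ENSMUSG00000025779) spans chromosome 1, 16688051 to 16709611, plus strand, with exon bases shared with no other gene.

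Lbp, whose product delivers LPS to CD14, varied little among the ALI samples. It ranged from 113 to 128 CPM in ALI around a median of 121, against 49.9 to 70.0 CPM around 64.8 in controls, where control 6 was the low sample. Lbp rose by 0.94 ± 0.08 (SE, edgeR adjusted p = 6.64e-07). Liver is the best known source of LBP, and 8 hepatocyte markers, Alb and Apoa1 among them, together held 0.419 to 2.08 CPM in ALI samples and 0.375 to 1.14 CPM in controls. Fgb had no counts in either group, and Apoa1 and Apoa2 had none in controls. Alveolar type 2 markers summed to 18950 to 24140 CPM in ALI and 21100 to 28020 CPM in controls, ranges that overlap. Of these 6 markers, Sftpa1 and Lamp3 were higher in ALI (log2 change 0.60 and 0.44), Sftpb was lower (-0.62) and 3 were not called. The part of these cells in the rise of Lbp was not tested. Lbp (ENSMUSG00000016024) is on chromosome 2, 158306493 to 158332852, plus strand.

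Whether the parts of the receptor complex changed by the same amount was asked through the log2 ratio of 2 genes within each sample. Library scaling enters this ratio only through the prior count of 2 added before logs are taken. The 9 ratios compared were tested by two-sided exact permutation of 6 against 6, where the smallest possible p is 0.00216, with Benjamini-Hochberg adjustment over the 9. Tlr4, the receptor, had 58.2 ± 7.21 CPM in ALI and 27.7 ± 6.25 CPM in controls (SD, n = 6 each), a rise of 1.07 (edgeR adjusted p = 4e-05). The Cd14/Tlr4 log2 ratio was 1.75 ± 0.49 in ALI and -0.38 ± 0.56 in controls, a difference of 2.13 (95% interval 1.45 to 2.78, exact permutation p = 0.00216, adjusted p = 0.0039). Cd14/Ly96 differed by 2.15 (1.48 to 2.83) with the same p-values. Cd14 thus rose more than both of its partners in the complex, with no overlap between groups in either ratio. For Ly96/Tlr4 the difference was -0.03 with an interval of -0.71 to 0.64 (exact permutation p = 0.924), so a shift within that interval was not detectable here.

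**Figure D3:**
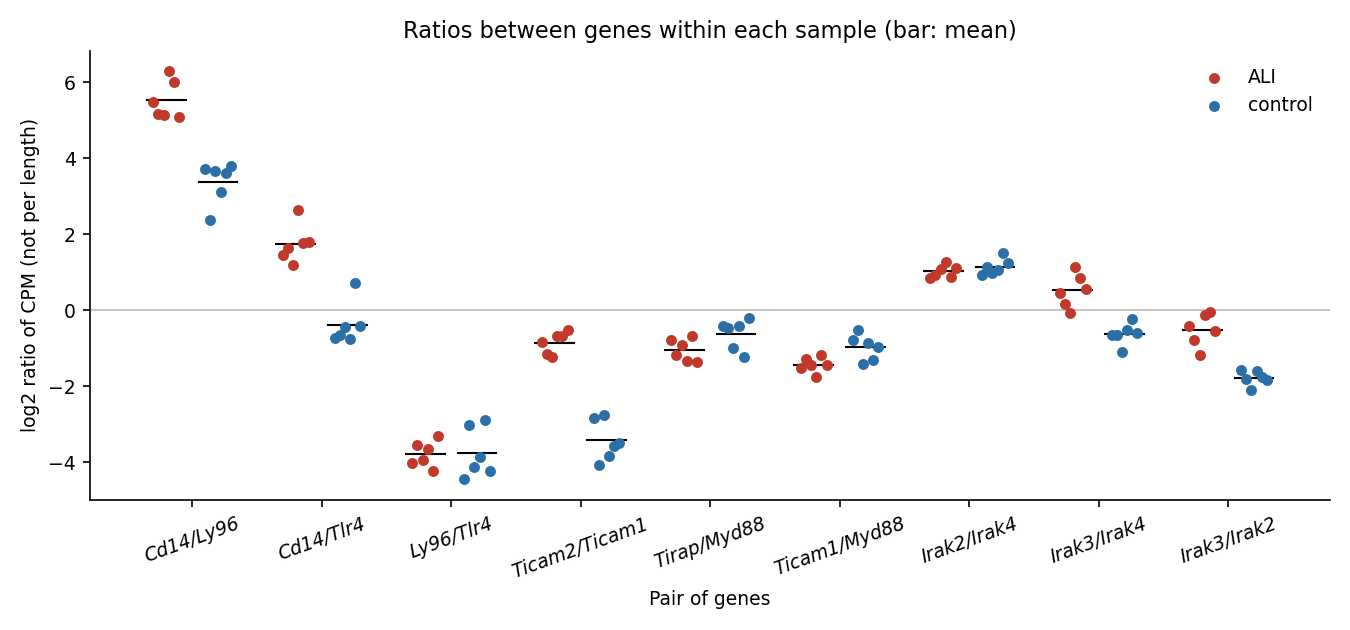
Log2 ratio of CPM between 2 genes within each sample, for 6 ALI and 6 control samples, with a bar at the group mean. Groups are separate for Cd14/Ly96, Cd14/Tlr4, Ticam2/Ticam1, Irak3/Irak4 and Irak3/Irak2, and overlap in the other 4 ratios.

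Of the 4 adaptors, Ticam2 and Myd88 rose. Ticam2 encodes TRAM, the adaptor that links TLR4 to TRIF and is dedicated to that receptor more than its partners are. Its lowest, median and highest values were 7.44, 11.2 and 14.6 CPM in ALI, against 1.06, 1.38 and 2.49 CPM in controls. The lowest ALI sample was thus well above the highest control. Ticam2 rose by 2.85 ± 0.24 (SE, edgeR adjusted p = 5.56e-07) on 1222 counts in ALI and 164 in controls. Ticam2 (ENSMUSG00000056130, chromosome 18, 46557291 to 46574533, minus strand) shares 14.5% of its GENCODE M21 exon bases with Tmed7, a secretory pathway gene on the same strand. Tmed7 itself had 219 ± 10.4 CPM in ALI and 212 ± 13.3 CPM in controls (SD, n = 6 each), a difference of 0.05 on the log2 scale (edgeR adjusted p = 0.602).

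Myd88 encodes the adaptor used by nearly all Toll-like receptors and by the IL-1 receptor family. In ALI it ranged from 47.2 to 64.6 CPM with a median of 55.0, against 30.1 to 44.8 CPM and a median of 31.3 in controls. Control 5 and control 3 were the highest controls, and neither reached the lowest ALI sample. The rise was 0.68 ± 0.11 (SE, edgeR adjusted p = 0.000245). The gene (ENSMUSG00000032508, chromosome 9, 119335934 to 119341411, minus strand) shares 11.3% of its exon bases with Acaa1a on the other strand, and the sources used here do not say whether counting used strand.

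Tirap and Ticam1 were the members that did not pass the threshold. Tirap, whose product brings MyD88 to TLR2 and TLR4, had 22.2 to 33.4 CPM in ALI with a median of 25.5, against 19.3 to 27.0 CPM and a median of 22.5 in controls. Its log2 change was 0.27 (95% interval 0.02 to 0.53, edgeR adjusted p = 0.0889), and without control 6, the highest control, it was 0.33 with an adjusted p of 0.0473 by edgeR. Ticam1, which encodes TRIF, had 17.4 to 23.4 CPM in ALI with a median of 20.1, against 14.5 to 21.6 CPM and a median of 17.4 in controls. Its change was 0.22 (95% interval -0.02 to 0.46, edgeR adjusted p = 0.145). For both genes 2 of 6 ALI samples exceeded every control. Tirap (ENSMUSG00000032041) lies on chromosome 9, 35184551 to 35200291, and Ticam1 (ENSMUSG00000047123) on chromosome 17, 56269319 to 56276786, both on the minus strand. Tirap shares 9.84% of its exon bases with genes on the other strand, and Ticam1 shares none.

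Within the TRIF branch the bridging adaptor and TRIF itself therefore changed unequally. The Ticam2/Ticam1 log2 ratio was -0.84 ± 0.28 in ALI and -3.42 ± 0.54 in controls (SD, n = 6 each), a difference of 2.58 (95% interval 2.02 to 3.14, exact permutation p = 0.00216, adjusted p = 0.0039). Per base of transcript, Ticam2 stood at 0.428 ± 0.080 of Ticam1 in ALI and at 0.071 ± 0.028 of it in controls (SD, n = 6 each). Ticam1 relative to Myd88 was lower in ALI by 0.47 (95% interval -0.83 to -0.11, exact permutation p = 0.0238, adjusted p = 0.0357). That call is not firm. It was lost on leaving out any of ALI 1, ALI 3, ALI 4, ALI 6, control 1, control 2, control 4 or control 6 (adjusted p 0.0552 to 0.0649 by the same exact permutation test). The Tirap/Myd88 ratio differed by -0.42 (95% interval -0.90 to 0.04, exact permutation p = 0.0628, adjusted p = 0.0807), and by -0.54 without control 5 (adjusted p = 0.025 by the same exact test).

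All 3 kinase family genes rose. Irak4, which encodes the kinase that starts the cascade on MyD88, had 25.7 to 33.4 CPM in ALI with a median of 28.8, against 15.5 to 20.1 CPM and a median of 18.8 in controls. It rose by 0.66 ± 0.09 (SE, edgeR adjusted p = 5.58e-05). Irak2, whose product sustains NF-kB signalling after IRAK1 is lost, had 51.6 to 68.4 CPM in ALI with a median of 59.0, against 38.1 to 44.8 CPM and a median of 40.9 in controls. Its change was 0.54 ± 0.08 (SE, edgeR adjusted p = 0.000107), the smallest of the 8 that were called. The Irak2/Irak4 ratio differed by -0.12, with a 95% interval of -0.39 to 0.12 (exact permutation p = 0.297, adjusted p = 0.334). Irak4 (ENSMUSG00000059883) is on chromosome 15, 94543643 to 94581815, and Irak2 (ENSMUSG00000060477) on chromosome 6, 113638467 to 113695026, both plus strand. Irak4 shares 7.87% of its exon bases with Twf1 and Irak2 4.44% with the gene model Gm43963, each on the other strand.

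Irak3, the inhibitory member, changed most of the 3. Its lowest, median and highest values were 24.7, 41.5 and 63.0 CPM in ALI, against 9.34, 12.5 and 13.3 CPM in controls. The ALI samples spread more widely than the controls, and the groups did not overlap. Irak3 rose by 1.87 ± 0.20 on the log2 scale (SE, edgeR adjusted p = 6.66e-06). Relative to Irak4, Irak3 was higher in ALI by 1.14 (95% interval 0.67 to 1.63), and relative to Irak2 by 1.27 (0.84 to 1.69), each with an exact permutation p of 0.00216 (adjusted p = 0.0039). Per base of transcript, Irak3 stood at 2.05 ± 0.63 of Irak4 in ALI and at 0.902 ± 0.173 of it in controls (SD, n = 6 each). Irak3 (ENSMUSG00000020227, chromosome 10, 120141648 to 120202130, minus strand) shares 5.98% of its exon bases with genes on the other strand.

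Divided by transcript length, the order of the 10 genes differed between the groups. In ALI, Cd14 led with 131 ± 48.2 CPM per kilobase, followed by Lbp at 25.0 ± 1.18 and Myd88 at 21.5 ± 2.21, and Ticam2 was last at 2.94 ± 0.70 (SD, n = 6 each). In controls, Cd14 at 13.6 ± 3.16 and Myd88 at 13.4 ± 2.32 CPM per kilobase had overlapping ranges, also with Lbp at 10.3 to 14.5, and Ticam2 was last at 0.406 ± 0.144. Cd14 was thus separate from the gene after it in ALI only, by a log2 distance of 2.31 ± 0.46. Irak3 stood between Irak2 at 13.5 ± 1.37 and Ticam1 at 6.84 ± 0.80 in ALI, with a range that overlapped both. In controls it came after Irak4 at 3.67 ± 0.35 and before Ly96 at 1.94 ± 0.62, again with overlapping ranges. The deposited lengths of Cd14 and Ticam2, 1572 and 3928 bases, are shorter than the GENCODE M21 exon unions of 1732 and 5792 bases, so their levels per kilobase depend on the annotation.

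The ALI samples were not alike. ALI 4, ALI 5 and ALI 6 held the 3 highest ALI values of 4 genes, Cd14, Ticam2, Irak2 and Irak3, and ALI 3 held the lowest ALI value of 7 genes, Cd14, Ly96, Myd88, Ticam1, Ticam2, Irak3 and Irak4. For Cd14 and Irak3 the 6 ALI samples stood in the same order. From high to low it ran ALI 4, ALI 5, ALI 6, ALI 1, ALI 2, ALI 3, with Cd14 at 338, 239, 203, 170.4, 153 and 128 CPM and Irak3 at 63.0, 60.0, 43.8, 39.1, 33.3 and 24.7 CPM. Interstitial macrophage markers, a list of 9 genes with the complement genes C1qa to C1qc, summed in the same order to 1147, 1120, 1073, 1015, 976 and 812 CPM. This list was singled out after its values were seen, and the other myeloid lists did not follow that order. The alveolar macrophage sum was lowest in ALI 4 at 1121 CPM and highest in ALI 6 at 1438 CPM, and the monocyte sum was highest in ALI 5 at 394 CPM and lowest in ALI 3 at 259 CPM. The neutrophil marker sum had another order, with ALI 1 highest at 568 CPM, ALI 4 at 545 and ALI 3 lowest at 274 CPM.

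**Figure D4:**
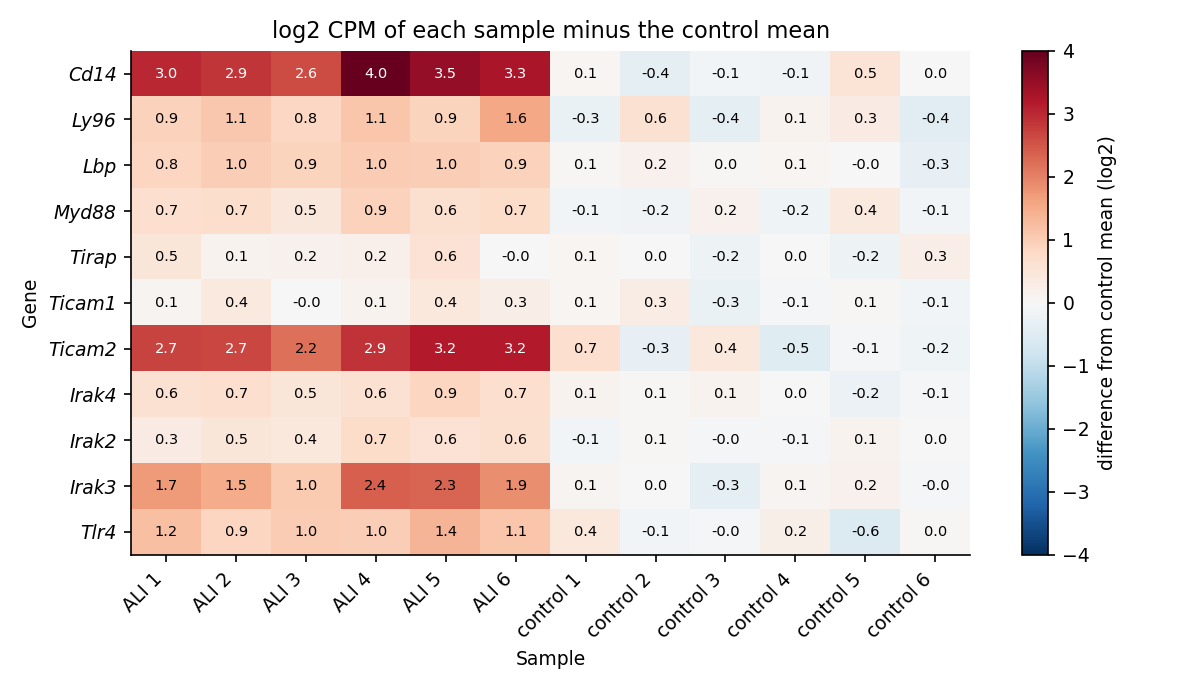
Log2 CPM of each gene in each of the 12 samples minus the mean of the 6 controls, written in each cell, for the 10 genes and Tlr4. Cd14 and Irak3 are highest in ALI 4, and ALI 3 holds the lowest ALI value of 7 of the 10 genes.

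Several of these transcripts are abundant in myeloid cells, whose markers were also higher in ALI. Neutrophil markers (14 genes) summed to 274 to 568 CPM in ALI and 92.6 to 149.6 CPM in controls, with 11 of 12 tested genes higher. Monocyte markers (8 genes) summed to 259 to 394 CPM in ALI and 134 to 176 CPM in controls, with 4 higher and 1 lower. Alveolar macrophage markers (10 genes) summed to 1121 to 1438 CPM in ALI and 329 to 478 CPM in controls, with 9 higher, and interstitial macrophage markers to 812 to 1147 CPM in ALI and 337 to 501 CPM in controls, with 5 of 9 higher and 1 lower. The mean sums were 3.40-fold, 2.18-fold, 3.11-fold and 2.59-fold higher in ALI in the same order, beside 9.64-fold for Cd14, 7.19-fold for Ticam2 and 3.66-fold for Irak3. Single markers moved as far, among them Ms4a7 of interstitial macrophages with a log2 change of 4.15 and the neutrophil gene Cd177 with 4.24. T and B cell markers (6 genes) summed to 44.8 to 120 CPM in ALI and 90.1 to 168 CPM in controls, with 2 lower. Endothelial markers (5 genes) summed to 1917 to 2560 CPM in ALI and 3131 to 4885 CPM in controls, with 5 lower. Type 1 cell markers (5 genes) summed to 1575 to 2153 CPM in ALI and 2399 to 3665 CPM in controls, with 4 lower. Club cell markers (3 genes) summed to 2038 to 5357 CPM in ALI and 9770 to 26050 CPM in controls. Of these, 2 were lower and 1 was not called. The part of any of these cells in the changes of the 10 genes was not tested.

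By pattern over all 12 samples, measured as the root mean square difference of log2 CPM centred on each gene's mean, the nearest genes to Cd14 were Lpcat2 (0.23), Il1rn (0.24) and Clec4n (0.24). Those nearest to Ticam2 were Mcemp1 (0.22), Tbc1d9 (0.26) and Tbxas1 (0.27), and those nearest to Irak3 were Mag (0.14), Zc3h12a (0.18) and Gm5424 (0.18). Myd88 lay nearest to Erp29 (0.06), Fuca1 (0.09) and Bin3 (0.09), and Lbp to Ptgs1 (0.12), Amdhd2 (0.13) and Tnfaip8l1 (0.13). Irak4 lay nearest to Sftpa1, Tbc1d10b and Tmem164, and Irak2 to Dnase2a, Arpc5 and Ehbp1l1, all at 0.07. The nearest genes to Ly96 were Spsb1 at 0.20, Strip2 at 0.25 and Cdkn1a at 0.27. Tirap had Sec16a, Med14 and Lig3 at 0.08 each, and Ticam1 had Rngtt, Pigh and Ap4m1 at 0.12 each.

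Around the receptor, a list of TLR4 partners and LPS-handling genes had 6 of 11 tested genes higher and 2 lower in ALI, with a median log2 change of 1.07. Aoah, the enzyme that removes acyl chains from LPS and so inactivates it, had 20.6 ± 7.73 CPM in ALI and 1.28 ± 0.66 CPM in controls (SD, n = 6 each), a rise of 4.02. The integrin chains Itgam and Itgb2, which form complement receptor 3, rose by 3.07 and 2.35, and Ly86, the MD-2-like partner of Cd180, by 1.71. The 2 that fell, named after their values were seen, were the scavenger receptor gene Cd36 (log2 change -0.91) and Pltp (-0.72), which encodes a lipid transfer protein of the LBP family. Of 12 Toll-like receptor genes 9 rose and none fell. Tlr2, the receptor for bacterial lipoproteins, rose by 3.17, the RNA sensors Tlr7 and Tlr13 by 2.52 and 2.63, and Tlr11, a sensor of profilin and flagellin in mouse, by 2.10.

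Downstream of MyD88, 1 of 14 tested genes rose and none fell, with a median log2 change of 0.02. Irak1, the partner kinase of Irak2, had 98.8 ± 8.04 CPM in ALI and 93.7 ± 12.8 CPM in controls (SD, n = 6 each), and its change was 0.08 (95% interval -0.12 to 0.28). Traf6, the ubiquitin ligase after the IRAKs, had 54.7 ± 6.46 CPM in ALI and 54.4 ± 7.30 CPM in controls (SD, n = 6 each), with a change of 0.01 (95% interval -0.21 to 0.23). The gene that rose was Map3k7, which encodes the kinase TAK1, by 0.28 (edgeR adjusted p = 0.0135).

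Downstream of TRIF, 6 of 12 genes rose and 2 fell, with a median of 0.36. Ikbke, which encodes an IRF3 kinase, had 48.8 ± 13.4 CPM in ALI and 10.3 ± 1.84 CPM in controls (SD, n = 6 each), a rise of 2.24. The kinases Ripk3 and Ripk1, which bind TRIF, rose by 1.06 and 0.69. Tbkbp1, an adaptor of the kinase TBK1, fell by 0.60, and Irf3, named after its values were seen, fell by 0.45. Of 15 genes known as brakes on this signalling, 8 rose and 1 fell, with a median of 0.28. Il1rn, the IL-1 receptor antagonist, rose by 3.11, the A20-binding inhibitor genes Tnip3 and Tnip1 by 2.87 and 1.05, and the phosphatase gene Ptpn6 by 1.13. The brake that fell, named after its values were seen, was Sigirr (log2 change -0.67), which encodes an inhibitory receptor of the IL-1 family.

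Genes used as readouts of the branches were counted in the same way. Of 12 NF-kB targets 10 rose and none fell, with a median log2 change of 2.40, among them Lcn2 (3.74), Il1b (3.17) and Nfkbiz (1.11), and Cxcl3 with 56.4 ± 41.3 CPM in ALI and 0.092 ± 0.089 CPM in controls (SD, n = 6 each). The feedback genes, named after their values were seen, Nfkbia (0.23, edgeR adjusted p = 0.347) and Zfp36 (-0.04, edgeR adjusted p = 0.933) were not called. Of 9 IRF3 targets tested 5 rose and none fell, with a median of 0.66. Cxcl10 had 6.44 ± 2.55 CPM in ALI and 0.871 ± 0.442 CPM in controls (SD, n = 6 each), a rise of 2.86, while Ccl5, Irf7 and Oasl1 rose by 1.17, 1.44 and 1.26 and Ifit1 by 0.65. The other 4 tested, named after their values were seen, were not called: Ifit2 (0.05), Ifit3 (0.002), Isg15 (0.66) and Rsad2 (0.16). Among the called IRF3 targets, the groups overlapped in Ccl5, Oasl1 and Ifit1. They overlapped too in the called NF-kB targets Tnf, Il6 and Cxcl1, named after their values were seen. The call of Ifit1 was lost without ALI 5. Ifnb1, the interferon gene of this branch, had no counts in any of the 12 samples, which allows up to 0.028 CPM over the ALI group and 0.030 CPM over the controls by 3 counts, for counting error only. These lists share members and differ in length, and the difference between their medians was not tested.

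**Figure D5:**
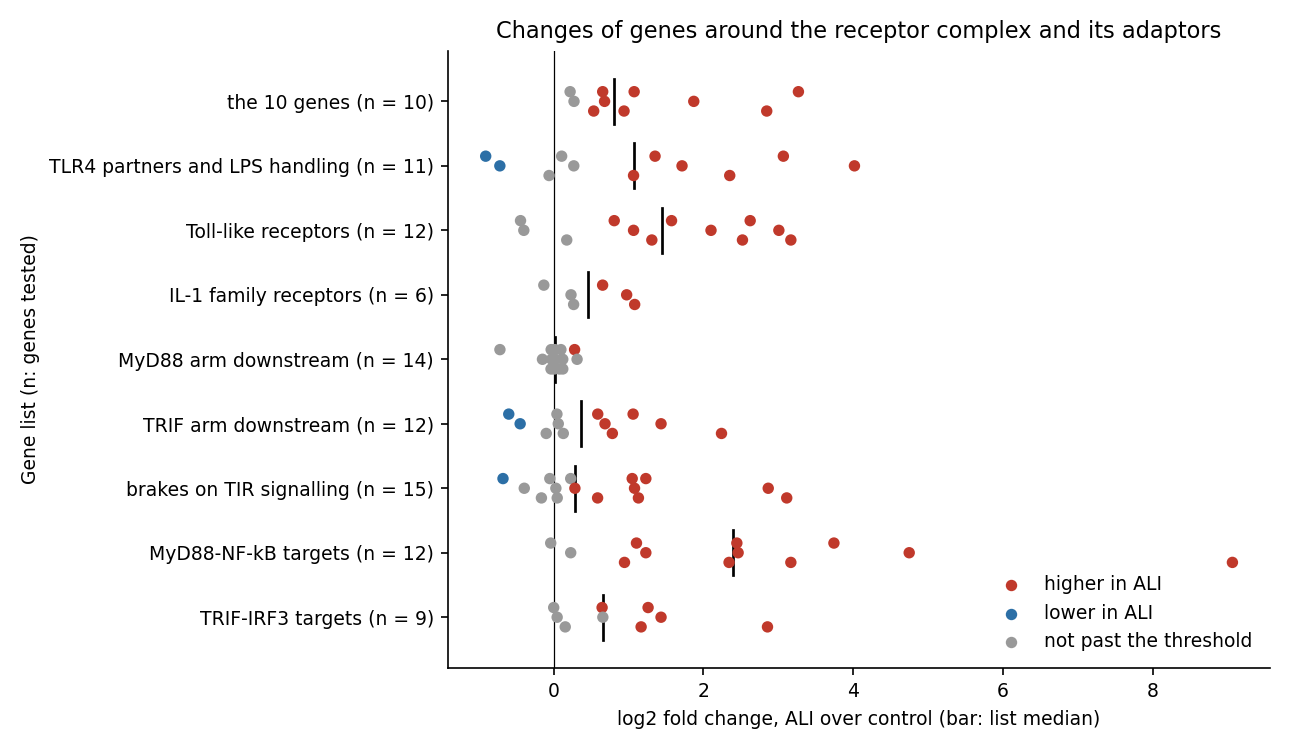
Log2 fold change of ALI over control for each tested gene of the 10 genes and of 8 lists around them, coloured by call, with a bar at the list median. The MyD88 downstream genes gather at their median of 0.02, while the Toll-like receptors have a median of 1.44 and the NF-kB targets 2.40.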

How the data were processed

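Lung total RNA (TRIzol) went into NEBNext Ultra libraries for NovaSeq sequencing, per the labels' protocols. Raw gene counts of 6 ALI and 6 control samples, with gene lengths in bases, were deposited by the authors in 1 table. HISAT2, fastp, featureCounts and GRCm38 (mm10) are listed, without versions or settings, per the submitters' processing notes. Columns were matched to samples by the code in each title. Deposited starts equalled GENCODE M21 starts for 2.73% of 54495 matched genes, so coordinates are from M21 (GRCm38).

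Genes were kept by filterByExpr (minimum count 10), scaled by TMM and tested with the robust quasi-likelihood test of edgeR 4.0.16 in R 4.3.3, without covariates. Adjusted p-values are Benjamini-Hochberg values over 16185 genes. SE is the absolute log2 change over the square root of F. Log CPM used a prior count of 2. Intervals of ratios invert the exact permutation test. Alternatives were DESeq2 1.42.0, limma-voom (limma 3.58.1), other scaling and filters, the replicate number as a block, and samples left out. No within-group pair, of 30, agreed within counting error, with a chi-square of 6.91 to 239 per degree of freedom. The code was tested on simulated data.

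The 10 genes and all lists were chosen with earlier results of these data known. Named genes are the 10, up to 4 called genes with the smallest p of each list, and Tlr4, Irak1 and Traf6. Other choices made after values were seen are given as such, also Ms4a7, Cd177, Sftpc, Tmed7 and Ifit1. Promoter windows are from RefSeq.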

Additional observations from a re-analysis of the deposited data

Results flagged for a closer look

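In the 38 sets of 6 values checked (each gene and each ratio in each group), 3 had a sample whose distance from its nearest neighbour exceeded Dixon's 95% critical value as a share of the range. By chance about 1 set in 20 would do so. Ly96 in ALI 6 had a log2 CPM of 2.57, with the other ALI samples at 1.85 to 2.11. Without ALI 6 the rise of Ly96 was 0.95 and it was still called. Lbp in control 6 had a log2 CPM of 5.64, with the other controls at 5.97 to 6.13. The log2 ratio Cd14/Tlr4 in control 5 was 0.73, with the other controls at -0.74 to -0.41. Control 5 is the sample with 5007 CPM of adipocyte markers, and it had the lowest Tlr4 level (18.4 CPM) and the highest Cd14 level (30.6 CPM) of the controls. Without control 5 the difference of this ratio between ALI and control was 2.35, and the part of the adipose transcripts in that sample's ratio was not tested.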

How the results depend on the processing

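Over 22 alternatives the 8 risen genes kept direction and call, with Cd14 at 3.07 to 3.46, Ticam2 at 2.75 to 3.02 and Irak3 at 1.74 to 1.99. Ticam1 was never called and Tirap only without control 6. Genes called over the whole table numbered 2639 to 4010 higher and 2183 to 3778 lower.

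Same-numbered samples did not deviate together (correlations -0.27 to 0.27 over 6 pairs, 1 of 6 ALI samples closest to its own number). With the replicate number as a block, the calls of the 10 genes were the same, while Map3k7 and Ifit1 were lost. For ratios, 6 sign-flipped pairs cannot give a p under 0.0312 before adjustment, and no ratio passed after it. Cd14/Ly96 (2.15), Cd14/Tlr4 (2.13), Ticam2/Ticam1 (2.58), Irak3/Irak4 (1.14) and Irak3/Irak2 (1.27) had an adjusted p of 0.0563 by exact sign-flip permutation. That of Ticam1/Myd88 (-0.47) was 0.141 by the same test.

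The Ly96/Tlr4 difference was near 0 and changed sign with a prior count of 0.5 (0.004), without control 5 and ALI 2 (0.10) and on leaving out single samples (-0.17 to 0.15). Leaving out single samples put Ticam1/Myd88 at -0.56 to -0.38, with 8 of 12 calls lost, and Tirap/Myd88 at -0.54 to -0.34. Without control 5 and ALI 2, Tirap/Myd88 was called (-0.51, adjusted p = 0.0408 by exact permutation). The cause of these changes was not tested. Low counts limit Ly96 and Ticam2, with 196 and 164 counts over the controls.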

Other observations

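The receptors of the IL-1 family signal through the same MyD88 and IRAK proteins. Of 6 such genes 3 rose and none fell, with a median log2 change of 0.46. Il1rl2, a subunit of the receptor for IL-36, had 40.8 ± 4.76 CPM in ALI and 19.2 ± 2.04 CPM in controls (SD, n = 6 each), a rise of 1.08 (edgeR adjusted p = 1.38e-06). Il18rap, the accessory chain of the IL-18 receptor, rose by 0.98 (edgeR adjusted p = 0.000406), and Il1r1, the signalling receptor for IL-1, by 0.65 (edgeR adjusted p = 0.00032). Il18r1 (0.23), Il1rap (0.27) and Il1rl1 (-0.13) were not called.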
